A study of Mus musculus with 6 samples.

Results

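The genes of DNA replication and of the G1/S transition were examined in mouse MLL-AF10 leukemia cells, named for the gene fusion they carry, with and without an IKK inhibitor. The 57 members span origin licensing, the replisome, nucleotide supply, the E2F factors with cyclin E, and the copying of chromatin. They were chosen by function, with earlier results of these data known. All 57 had at least 1 probe set among the 19847 genes tested. One group of 3 samples received vehicle and the other group of 3 received 0.5 µM of an IKK inhibitor, a blocker of the kinases that release NF-kB from its IkB inhibitors. All 6 samples came from the same line, grown in medium with serum and WEHI conditioned medium, and differed in the labels only by treatment. The sources used here do not give the compound's name, the time of treatment, how the line was made or whether replicates were grown as separate cultures. The p-values therefore speak only of the spread between these 6 samples, and that spread may be technical.

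A cell copies its genome in ordered steps. In G1 the origin recognition complex (ORC), Cdc6 and Cdt1 load the ring-shaped MCM helicase onto origins, which is called licensing. At the start of S phase Cdc45 and the GINS complex join MCM and turn it into an active helicase, primase and the DNA polymerases follow, and the clamp PCNA, loaded by replication factor C (RFC), holds the polymerases on the template. Cyclin E with its kinase opens the path into S phase by releasing E2F transcription factors from the retinoblastoma protein, and E2F factors in turn switch on many genes of this machinery.

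RNA was read on whole-transcript arrays, and values are deposited intensities on a linear scale, for which no detection call is given. Array medians lay between 112.5 and 123.6, and correlations of log2 values were 0.993 to 0.997 within a group and 0.988 to 0.991 between groups. Myeloid markers were brighter as a list than those of other cell types, with a median vehicle intensity of 1807 against 95 to 140 for the other lists. Not each was, since Cd14 (191) read below the T cell marker Cd3e (203). All 12 myeloid markers were measured, among them Spi1, Lyz2 and Ptprc (CD45), which is not confined to myeloid cells. Their summed intensities were 24794 to 25702 on vehicle arrays and 29625 to 30261 on inhibitor arrays. Of these 12, 8 rose and 3 fell with the inhibitor. The rises ran from a log2 fold change of 0.19 for Ptprc to 1.43 for Adgre1, a macrophage antigen. The 3 that fell were progenitor granule genes, and the fall was large in Mpo (-2.62) but small in Prtn3 (-0.28) and Elane (-0.24). Of 5 T cell, 4 B cell, 2 erythroid and 5 stromal markers tested, 0 passed limma's test and 0, 1, 0 and 0 had an unadjusted p under 0.05. No marker of these lists was at 0 or at the floor of 16 on any array. Their summed intensities overlapped between groups, at 509 to 611 against 477 to 584 for T cells, 406 to 466 against 426 to 474 for B cells, 268 to 298 against 256 to 286 for erythroid cells and 641 to 753 against 615 to 717 for stroma (vehicle first). What part the shift in myeloid markers had in the results below was not tested.

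Transcripts of the replication machinery were lower with the IKK inhibitor, by small amounts and across most steps. Of the 57 members, 26 (45.6%) fell and 0 rose at a Benjamini-Hochberg adjusted p under 0.05 in limma, which was adjusted over all genes tested. Over all 19847 genes 6.75% were called lower and 7.1% higher, and among the 7035 genes with a vehicle signal at least that of the dimmest member 14.3% were called lower. At an unadjusted p under 0.05, 40 members were lower and 0 higher. The members called had log2 fold changes between -0.52 and -0.19 with a median of -0.29, that is, transcript levels that fell by 30.0% to 12.0%. None of the 57 fell by 1.5-fold. The median over all members was a log2 fold change of -0.19, against 0.01 over all genes tested, and 48 members (84.2%) had a negative sign against 48.1% of all genes. In bulk RNA, fewer cells in a phase of the cycle and less RNA per cell cannot be told apart.

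**Figure D1:**
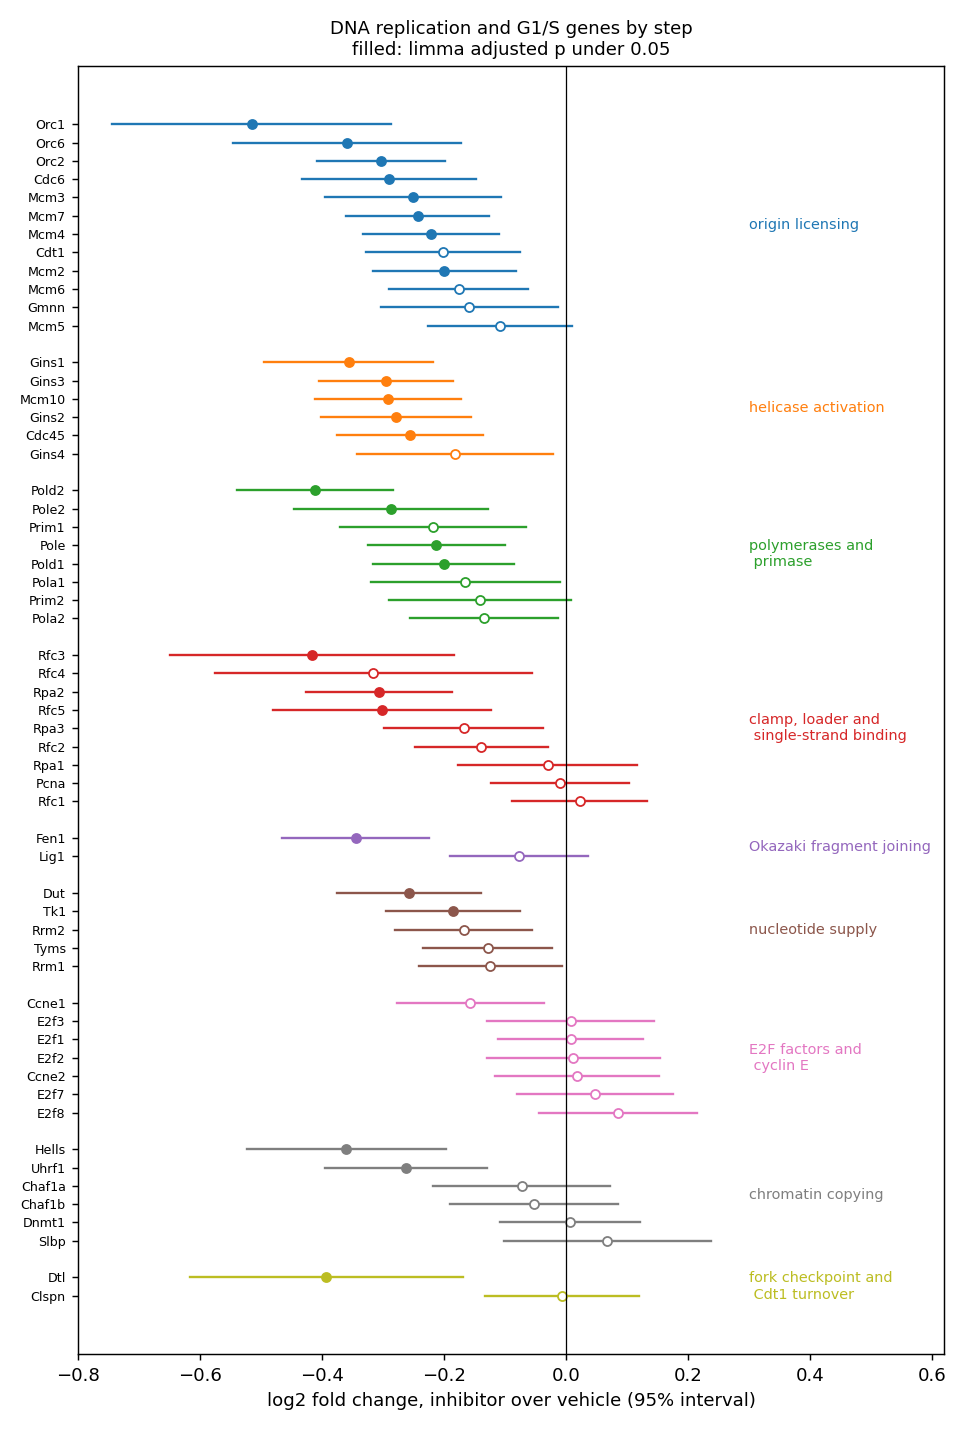
Log2 fold change of each of the 57 members, inhibitor over vehicle (horizontal axis), with its 95% interval from limma (3 arrays per group), grouped by step; filled points passed an adjusted p of 0.05. All points of the licensing, helicase activation and polymerase steps lie below 0, whereas 6 of the 7 E2F and cyclin E genes lie at or just above it.

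The pattern was present on each inhibitor array. Relative to each gene's vehicle mean, the median member stood at -0.19, -0.18 and -0.21 (log2) on inhibitor arrays 1, 2 and 3 and at -0.02, 0.01 and 0.01 on the vehicle arrays. Over all genes tested the same medians were 0.03, -0.04 and 0.03 on the inhibitor arrays. In 43 members (75.4%) every inhibitor array read below every vehicle array. Groups were apart in either direction in 32.9% of all genes, and with the inhibitor lower in 17.2% of all genes and in 34.4% of those with a signal as high as the dimmest member. The opposite arrangement was found in 0 members. Inhibitor array 3 held the lowest value of 29 members, including 16 of the 26 called.

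**Figure D2:**
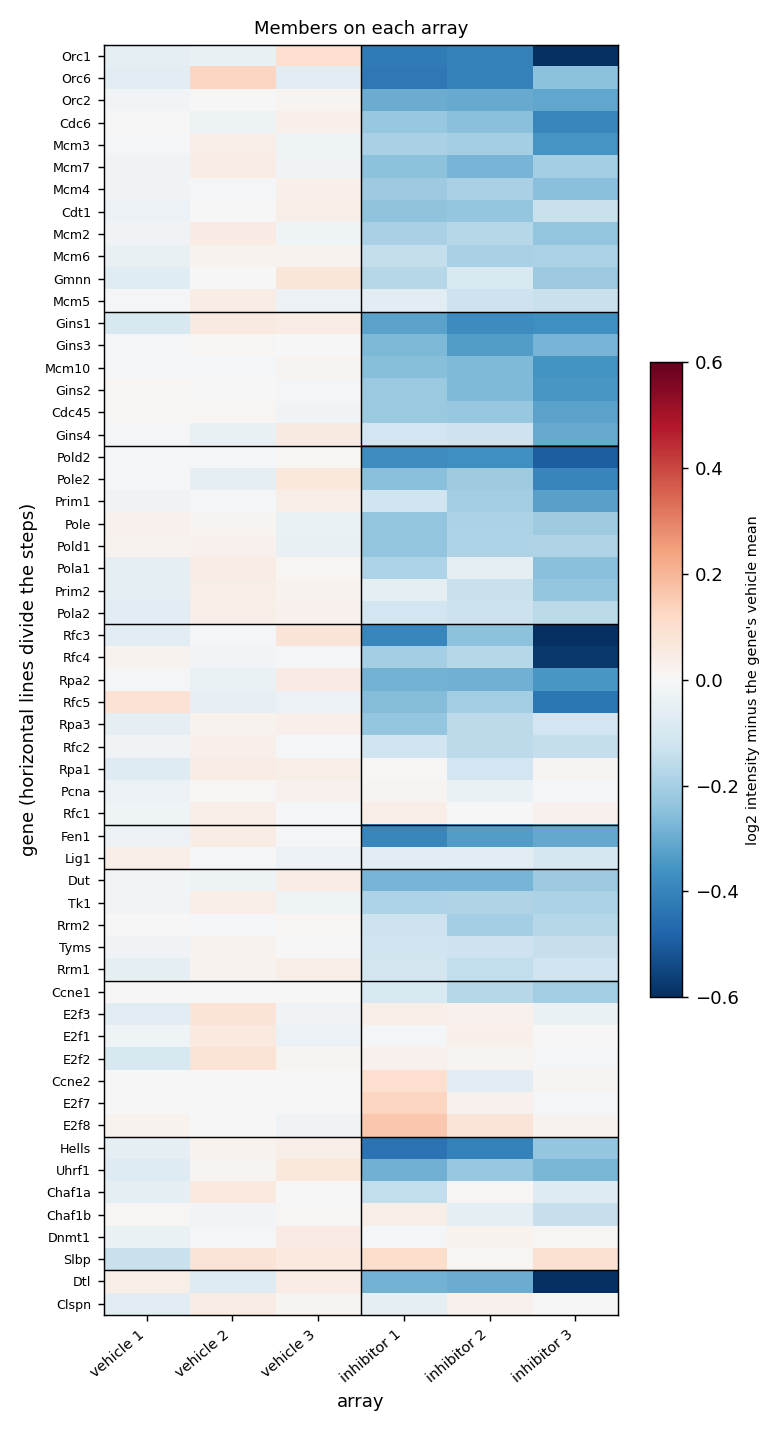
Log2 intensity of each member (rows) on each of the 6 arrays (columns), relative to the gene's mean over the vehicle arrays; blue is lower. The 3 inhibitor columns are blue through the licensing, helicase and polymerase rows and pale at Pcna, Rfc1, the E2F factors, Dnmt1 and Clspn.

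The number of calls depended on single arrays. Leaving out vehicle array 1, 2 or 3 gave 10, 5 or 4 calls, and leaving out inhibitor array 1, 2 or 3 gave 9, 22 or 17. All 26 members kept a negative log2 fold change in each of these settings, and the median of the 57 stayed between -0.21 and -0.18. The share of all genes called lower dropped as well, to 3.44%, 1.99%, 2.11%, 2.25%, 6.55% and 3.9% in the same order. Called in all 6 settings were Orc2, Gins3, Pold2 and Fen1. Rpa2 was called in 5 and lost without vehicle array 3. Orc1, Mcm10 and Gins1 were called in 4 and lost without vehicle array 2 or 3. The other 18 were lost when either vehicle array 2 or vehicle array 3 was removed. Without inhibitor array 3, Cdt1 was called in addition.

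Promoter sequences are shown for members that fell because E2F factors bind many genes of this machinery near the start site. RefSeq promoter windows of 300 bases (250 before and 50 from the start site on, build GRCm38.p6) were found for 48 of the 57 members, some with more than 1. They were searched on both strands for 4 E2F octamers, TTTCCCGC, TTTGGCGC, TTTCGCGC and TTTGCCGC, whose matches may overlap each other. At least 1 match was present in 21 of the 48 members (43.8%) and in 543 of the 15567 genes tested that have a window (3.5%). Counted by window, matches were in 35.6% of members' windows and in 2.3% of all 32851 windows. Of 28 matches, 18 began within 100 bases of the start site. The members that fell held a match in 11 of 22 and those not called in 10 of 26. The licensing genes held one in 7 of 10, and the nucleotide supply genes in 0 of 5. The CCAAT letters were in 66.7% of members and 41.7% of genes tested, and TTTGAA, the letters of the CHR element of mitotic promoters, in 18.8% and 17.2%. A match is a description of letters and not a measured binding site. Only exact copies of these octamers in these windows were counted, so a gene without a match may still have an E2F site. The windows below, 5′ to 3′ on the gene's strand with the E2F octamers in capitals, are those of the 6 members with a match that fell most:
Orc1 (chr4:108579204-108579503, plus strand): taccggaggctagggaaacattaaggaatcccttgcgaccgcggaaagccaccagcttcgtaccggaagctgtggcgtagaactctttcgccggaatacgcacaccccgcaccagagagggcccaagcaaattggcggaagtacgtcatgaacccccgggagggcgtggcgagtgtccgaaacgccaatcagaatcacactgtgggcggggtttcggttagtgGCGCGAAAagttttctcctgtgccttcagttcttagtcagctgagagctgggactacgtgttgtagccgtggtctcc
Rfc3 (chr5:151651159-151651458, minus strand): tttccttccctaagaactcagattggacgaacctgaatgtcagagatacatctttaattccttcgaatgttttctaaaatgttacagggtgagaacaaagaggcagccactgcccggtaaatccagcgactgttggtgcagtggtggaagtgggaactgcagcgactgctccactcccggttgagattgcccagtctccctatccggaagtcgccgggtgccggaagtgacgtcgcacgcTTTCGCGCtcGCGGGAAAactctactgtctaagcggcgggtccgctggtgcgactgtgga
Dtl (chr1:191575495-191575794, minus strand): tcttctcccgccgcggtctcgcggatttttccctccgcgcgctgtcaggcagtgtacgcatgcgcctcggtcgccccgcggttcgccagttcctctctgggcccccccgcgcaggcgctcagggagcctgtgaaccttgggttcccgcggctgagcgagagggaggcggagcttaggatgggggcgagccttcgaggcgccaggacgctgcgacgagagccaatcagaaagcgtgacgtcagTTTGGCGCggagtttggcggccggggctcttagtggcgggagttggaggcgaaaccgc
Hells (chr19:38930740-38931039, plus strand): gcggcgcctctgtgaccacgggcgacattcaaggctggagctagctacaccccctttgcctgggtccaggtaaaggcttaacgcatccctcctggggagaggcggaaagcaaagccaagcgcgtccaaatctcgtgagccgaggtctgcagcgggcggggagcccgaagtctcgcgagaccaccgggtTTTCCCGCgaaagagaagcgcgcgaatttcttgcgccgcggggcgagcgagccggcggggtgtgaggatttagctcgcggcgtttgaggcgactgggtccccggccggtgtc
Gins3 (chr8:95633309-95633608, plus strand): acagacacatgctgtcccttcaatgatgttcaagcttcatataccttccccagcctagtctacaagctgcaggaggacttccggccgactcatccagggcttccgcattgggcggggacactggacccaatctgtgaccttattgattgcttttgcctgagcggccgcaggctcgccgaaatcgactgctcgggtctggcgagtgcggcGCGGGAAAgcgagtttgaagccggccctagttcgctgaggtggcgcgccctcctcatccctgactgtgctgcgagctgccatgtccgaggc
Cdc6 (chr11:98907901-98908200, plus strand): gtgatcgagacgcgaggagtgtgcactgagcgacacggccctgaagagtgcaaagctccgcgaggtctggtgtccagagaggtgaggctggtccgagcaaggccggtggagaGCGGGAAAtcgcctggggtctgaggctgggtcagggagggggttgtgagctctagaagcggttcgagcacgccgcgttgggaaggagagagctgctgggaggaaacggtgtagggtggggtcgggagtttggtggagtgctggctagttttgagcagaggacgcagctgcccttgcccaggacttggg
The octamer begins at -27 from the start site in Orc1, at -10 and 1 in Rfc3, at -8 in Dtl, at -62 in Hells, at -41 in Gins3 and at -138 in Cdc6. A pair of members that were not called is set beside them, chosen after their values were seen. These are Clspn with its octamer at 22 and E2f3 with its octamer at -11. E2f3 has another window, which holds no match, and only the windows with the octamer are printed:
Clspn (chr4:126556730-126557029, plus strand): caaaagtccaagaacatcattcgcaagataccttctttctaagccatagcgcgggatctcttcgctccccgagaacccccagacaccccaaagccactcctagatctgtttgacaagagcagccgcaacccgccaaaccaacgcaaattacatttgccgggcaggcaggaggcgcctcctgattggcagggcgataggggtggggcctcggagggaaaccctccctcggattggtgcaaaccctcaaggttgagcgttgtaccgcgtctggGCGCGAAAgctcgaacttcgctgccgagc
E2f3 (chr13:29986014-29986313, minus strand): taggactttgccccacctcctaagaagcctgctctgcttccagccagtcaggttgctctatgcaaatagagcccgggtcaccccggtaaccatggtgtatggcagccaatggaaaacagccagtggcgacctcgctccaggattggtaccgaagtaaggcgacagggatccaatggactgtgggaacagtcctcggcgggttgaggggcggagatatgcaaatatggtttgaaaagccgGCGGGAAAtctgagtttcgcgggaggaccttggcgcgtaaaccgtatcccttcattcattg
The same letters near the start site occur in members that fell and in members that were not called.

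Origin licensing genes were lower throughout. Of 12 genes 8 fell, 0 rose, and in all 12 every inhibitor array lay below every vehicle array, with a median log2 fold change of -0.23. The 3 member genes of ORC, the complex that marks origins, all fell. Orc1, its largest subunit, read 327, 329 and 364 on the vehicle arrays and 253, 256 and 207 on the inhibitor arrays. Orc2 read 888, 896 and 907 with vehicle and 729, 728 and 723 with the inhibitor. The groups do not overlap in either gene, and inhibitor array 3 was the lowest in both. The log2 fold changes were -0.52 ± 0.10 for Orc1 and -0.30 ± 0.04 for Orc2 (SE, limma adjusted p = 0.0164 and 0.00677). Orc6 fell by 0.36 on the log2 scale. The other ORC subunit genes, which are not among the members, were not called, with log2 fold changes of -0.07 for Orc3, -0.09 for Orc4 and -0.01 for Orc5. Cdc6, the ATPase that joins ORC to recruit the helicase, read 718, 705 and 736 with vehicle and 614, 605 and 548 with the inhibitor. Its log2 fold change was -0.29 ± 0.06, and inhibitor array 3 was again the lowest.

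The helicase subunits Mcm2 to Mcm7, which form a ring of 6 different proteins, had log2 fold changes between -0.25 and -0.11. Mcm2, Mcm3, Mcm4 and Mcm7 fell, by 0.20, 0.25, 0.22 and 0.24 on the log2 scale. Mcm7 read 2137, 2240 and 2140 with vehicle and 1830, 1792 and 1885 with the inhibitor. Mcm4 read 1763, 1780 and 1828 with vehicle and 1538, 1564 and 1504 with the inhibitor. Both genes show tight groups with a clear gap. Mcm6 missed the threshold (adjusted p = 0.0564 by limma) with 2300, 2404 and 2403 against 2143, 2070 and 2077. Mcm5 stood at -0.11 with a 95% interval from -0.23 to 0.01, which overlaps those of the other 5 subunits. Cdt1, the loader that brings MCM to ORC, also missed narrowly (adjusted p = 0.0504), reading 1228, 1259 and 1289 with vehicle and 1064, 1073 and 1147 with the inhibitor. Gmnn encodes geminin, the inhibitor of Cdt1 that prevents a further round of licensing, and had a log2 fold change of -0.16 (adjusted p = 0.148). The 8 calls of this step became 2, 1 or 1 when vehicle array 1, 2 or 3 was removed, and 2, 6 or 6 when inhibitor array 1, 2 or 3 was. With each array centred on its median there were 5.

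The genes that switch the loaded helicase on were the step with the lowest median, -0.29 over 6 genes, of which 5 fell and 0 rose. Mcm10, which is needed for the helicase to start unwinding, read 1036, 1037 and 1053 with vehicle and 874, 868 and 813 with the inhibitor. Cdc45, the helicase cofactor, read 1384, 1387 and 1358 with vehicle and 1181, 1175 and 1103 with the inhibitor. Their log2 fold changes were -0.29 ± 0.05 and -0.26 ± 0.05 (SE). Of the 4 subunits of GINS, the other cofactor, 3 fell as well. Gins1 read 446, 495 and 492 against 381, 367 and 369 (vehicle first). Gins2 read 651, 645 and 640 against 553, 537 and 507. Gins3 read 380, 385 and 382 against 317, 303 and 315. No array of one group reached into the other in any of these GINS genes. They fell by 0.36, 0.28 and 0.29 on the log2 scale, while Gins4 stood at -0.18 (95% interval -0.34 to -0.02) without being called. The 5 calls became 3, 1 or 1 on removal of vehicle array 1, 2 or 3, and 4, 5 or 5 on removal of inhibitor array 1, 2 or 3.

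Among polymerase genes the calls lay with the enzymes that extend the strands. Pold2, the accessory subunit of polymerase delta, had the smallest adjusted p of all members. It read 1768, 1768 and 1790 with vehicle and 1371, 1374 and 1260 with the inhibitor, a log2 fold change of -0.41 ± 0.05 (SE, limma adjusted p = 0.00466). Transcript levels thus fell by 24.8%, with 3 near-identical vehicle arrays. The catalytic subunit gene Pold1 fell by 0.20, and Pole and Pole2 of polymerase epsilon, the leading strand enzyme, fell by 0.21 and 0.29. Of the smaller subunits of these enzymes outside the members, Pole3 fell by 0.26, and Pold3 (-0.10), Pold4 (-0.02) and Pole4 (-0.03) were not called. Polymerase alpha with primase lays down the primers, and 0 of its 4 genes passed limma's adjusted threshold, although 3 had an unadjusted p under 0.05. Their log2 fold changes ran from -0.22 for Prim1 to -0.13 for Pola2. Prim1 came nearest (adjusted p = 0.0716), with 539, 542 and 559 on vehicle arrays and 503, 473 and 436 on inhibitor arrays. All 4 read lower on every inhibitor array, so the 2 sets of polymerase genes differ in calls more than in sign, and the difference between them was not tested. Of the 4 calls of the step, Pold2 alone was left when any vehicle array, inhibitor array 1 or inhibitor array 3 was removed and with median centring, and 3 were left when inhibitor array 2 was.

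The clamp, its loader and RPA gave 3 calls among 9 genes, all lower. Pcna, the clamp itself, read 3820, 3944 and 3995 with vehicle and 3968, 3814 and 3904 with the inhibitor. The groups overlap fully, and the log2 fold change was -0.01 (95% interval -0.12 to 0.10). Of the 5 RFC genes, Rfc3 and Rfc5 fell, by 0.42 and 0.30 on the log2 scale. Rfc4 had a log2 fold change of -0.32 but was not called (adjusted p = 0.113). Inhibitor array 3 read 929 for this gene, and the other inhibitor arrays read 1204 and 1233. Rfc2 had a log2 fold change of -0.14. Rfc1, the large subunit, had a value of 0.02 (95% interval -0.09 to 0.13), and the interval of Rfc3 was -0.65 to -0.18. These are the highest and the lowest of the RFC genes, and the difference between them was not tested. RPA coats single-stranded DNA at the fork. Its middle subunit gene Rpa2 read 713, 698 and 741 with vehicle and 590, 587 and 562 with the inhibitor, a fall of 0.31 ± 0.05 on the log2 scale. Rpa3 had a log2 fold change of -0.17 and Rpa1 of -0.03, and neither was called. On removal of vehicle array 1, 2 or 3 the 3 calls became 1, 1 or 0, and on removal of inhibitor array 1, 2 or 3 they became 1, 3 or 1.

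Okazaki fragments, the short pieces of the lagging strand, are trimmed by the flap nuclease Fen1 and sealed by the ligase Lig1. Fen1 read 626, 662 and 640 with vehicle and 490, 510 and 518 with the inhibitor. It fell by 0.34 ± 0.05 on the log2 scale (adjusted p = 0.00702) and was called in every setting that left out an array. Lig1 stood at -0.08 (95% interval -0.19 to 0.04) and was not called. The intervals of the pair do not overlap, but the difference between the 2 genes was not tested.

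Among genes that supply deoxynucleotides, 2 of 5 fell and 0 rose, with a step median of -0.17. Dut, the phosphatase that keeps uracil out of DNA, read 821, 815 and 859 with vehicle and 686, 685 and 716 with the inhibitor, a log2 fold change of -0.26 ± 0.05. Tk1, the thymidine salvage kinase, fell by 0.19. Its other probe set gave a log2 fold change of -0.26, and both passed when probe sets were tested singly. Rrm2, the regulated subunit of ribonucleotide reductase, missed the threshold (adjusted p = 0.0624) with 2296, 2281 and 2318 against 2108, 1993 and 2039, groups that do not overlap. Rrm1 and the thymidylate synthase gene Tyms had log2 fold changes of -0.12 and -0.13, and both read lower on every inhibitor array. Both calls were lost when any vehicle array or inhibitor array 1 was removed, and 1 was left when inhibitor array 2 or 3 was. With median centring 1 was left, and Tk1 was no longer called.

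Among the members, the E2F factors and cyclin E, which stand upstream of the machinery, were not called. Of 7 genes 0 passed in limma, 1 had an unadjusted p under 0.05, and the median log2 fold change was 0.01. E2f1, the activator best known for driving S phase entry, read 927, 982 and 921 with vehicle and 936, 965 and 944 with the inhibitor. The arrays of both groups are mixed, and the 95% interval of its log2 fold change was -0.11 to 0.13. The activators E2f2 and E2f3 each had a log2 fold change of 0.01, with intervals of -0.13 to 0.15 and -0.13 to 0.14. The repressors E2f7 and E2f8, which are themselves made in S phase, had values of 0.05 and 0.08. Ccne2 had 0.02. These 6 genes carried no settled sign, since 1 of 7 genes of the step was negative as deposited, 2 with quantile normalization and 5 with each array centred on its median. Ccne1 was the exception. It read 841, 844 and 845 with vehicle and 792, 750 and 729 with the inhibitor (log2 fold change -0.16, adjusted p = 0.0955). The step had 1 call, lower, when only genes above the median intensity were tested, with an intensity trend and robust prior, and at an adjusted p under 0.10. E2F genes outside the members read lower. E2f4 and E2f6 fell, by 0.23 and 0.35 on the log2 scale (limma adjusted p = 0.0216 and 0.0196). Both calls were lost when any vehicle array or inhibitor array 1 was removed. That of E2f4 was also lost without inhibitor array 3 and with median centring. E2f5 had a log2 fold change of -0.28 and was not called (adjusted p = 0.173). The difference between the steps was not tested.

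Among genes that copy chromatin with the DNA, 2 of 6 fell and 0 rose. Hells, a chromatin remodeler required for DNA methylation, read 578, 609 and 616 with vehicle and 443, 454 and 511 with the inhibitor, a fall of 0.36 ± 0.07 on the log2 scale. Uhrf1, which reads hemimethylated DNA at the fork and recruits the maintenance methyltransferase, fell by 0.26. Dnmt1, that methyltransferase, stood at 0.01 (95% interval -0.11 to 0.12). The subunits of the histone chaperone CAF-1, Chaf1a and Chaf1b, had values of -0.07 and -0.05. Slbp, which binds histone mRNA, had 0.07, and its other probe set had -0.04. Both calls were lost without vehicle array 2, vehicle array 3 or inhibitor array 1, and 1 remained without inhibitor array 3 and with median centring. Of the remaining pair, Dtl fell and Clspn did not change detectably. Dtl directs the ubiquitin ligase that destroys Cdt1 in S phase, and had a log2 fold change of -0.39 ± 0.09, with 1081, 1000 and 1090 against 867, 859 and 698. Its call was lost without any vehicle array and without inhibitor array 1. Clspn encodes claspin, the fork checkpoint adaptor, and had a value of -0.01 (-0.13 to 0.12).

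**Figure D3:**
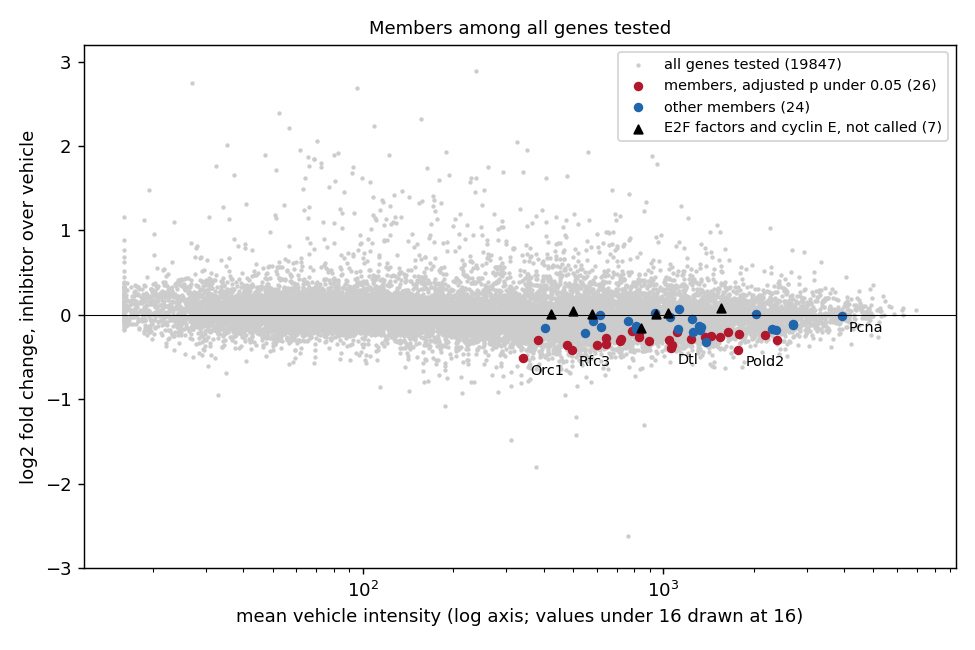
Log2 fold change, inhibitor over vehicle, against mean vehicle intensity on a log axis for all 19847 genes tested (grey), with the members coloured by call. Members lie in the upper range of intensity and in a narrow band between -0.52 and 0.08, with the E2F and cyclin E genes (triangles) near 0.

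Other genes of replication and of the G1/S switch, taken from lists by function, were examined beside the members. Of 36 origin firing and fork factors tested, 11 fell and 0 rose (17 lower and 0 higher at an unadjusted p under 0.05), with a median log2 fold change of -0.14. Those with the smallest p were Mtbp, a partner of the origin firing factor treslin (-0.39), the checkpoint kinases Chek1 (-0.39) and Atr (-0.36), and the helicase gene Recql4 (-0.29). Leaving out vehicle array 1, 2 or 3 gave 6, 2 or 3 calls here, and leaving out inhibitor array 1, 2 or 3 gave 4, 10 or 6.

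Of 28 genes of the RB, E2F and G1/S kinase network tested, 8 (28.6%) fell and 2 rose, with a median of -0.03. Over all genes 6.75% were called lower and 7.1% higher. Among genes as bright as the dimmest member these shares were 14.3% and 11.7%, so the 2 rises are not read as a trait of the list. The fallers with the smallest p were the S phase transcription factor gene Mybl2 (-0.48), Myc (-0.35), the kinase subunit gene Cks1b (-0.28) and the repressor gene E2f6 (-0.35). The risers were the cyclin gene Ccnd1 (0.39) and Rb1 (0.21), which encodes the retinoblastoma protein that restrains E2F. Ccnd1 was called whichever array was left out. Of the runs that left out an array, Rb1 was called only without inhibitor array 2, and it was not called with median centring. Leaving out any vehicle array or inhibitor array 1 gave 2 lower and 1 higher, leaving out inhibitor array 3 gave 3 and 1, and leaving out inhibitor array 2 gave 9 and 3. With median centring there were 4 and 1.

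Other nucleotide supply and chromatin assembly genes gave 13 (54.2%) that fell and 2 that rose among 24 tested, with a median of -0.27. Over all genes 6.75% were called lower and 7.1% higher. Lower with the smallest p were Cdca7, a partner of Hells (-0.58), the folate enzyme gene Shmt1 (-0.42), the pyrimidine synthesis gene Umps (-0.37) and the uracil glycosylase gene Ung (-0.31). Higher were Samhd1 (0.34), which degrades deoxynucleotides, and Ctps2 (0.23). The count of lower genes stayed between 7 and 11 when an array was left out, at 8, 8 or 7 for vehicle array 1, 2 or 3 and 7, 11 or 10 for inhibitor array 1, 2 or 3. The count of higher genes was 1 when any vehicle array or inhibitor array 1 was left out. Mitosis genes had 6 of 27 (22.2%) lower and 0 higher, not far above the 14.3% lower among genes as bright as the dimmest member. At an unadjusted p under 0.05, 14 were lower and 1 higher, and the median was -0.15. The 1 higher gene was Mki67 (0.17, limma adjusted p = 0.0676), with every inhibitor array above every vehicle array. The calls were led by Cenpa (-0.42), Birc5 (-0.24), Nuf2 (-0.23) and Ttk (-0.24). Their count was 0 without any vehicle array or without inhibitor array 1, 5 without inhibitor array 2, and 1 without inhibitor array 3 or with median centring. No difference between the members and these lists was tested.

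**Figure D4:**
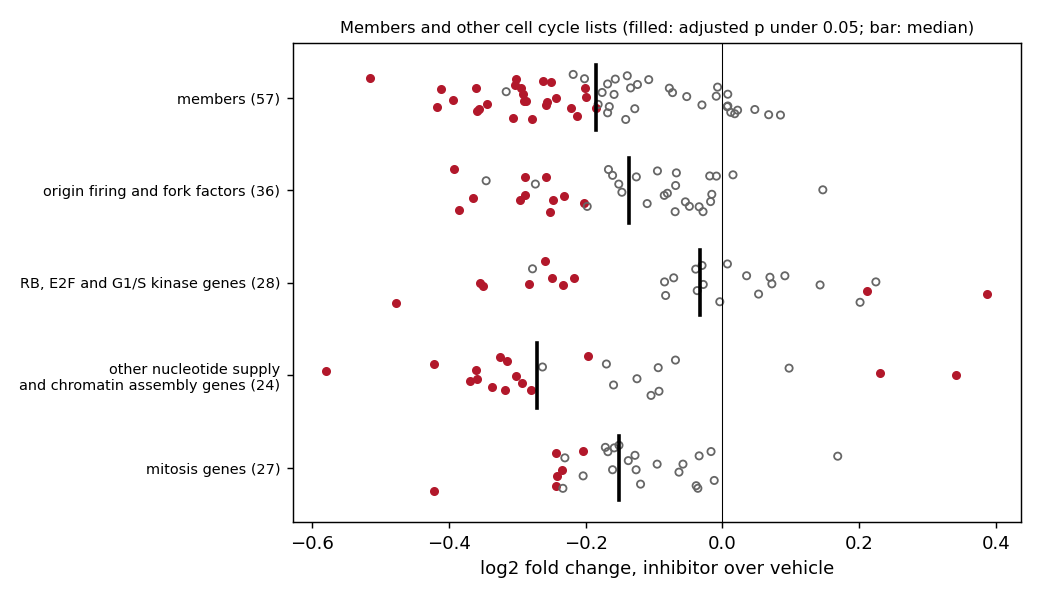
Log2 fold change of each gene (points), inhibitor over vehicle, for the 57 members and 4 other lists with the number tested in brackets; filled points passed limma's adjusted p of 0.05 and black bars are medians. The medians run from -0.27 for nucleotide supply and chromatin assembly genes to -0.03 for the RB, E2F and G1/S kinase genes.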

How the data were processed

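Total RNA was made into biotinylated sense DNA and read on whole-transcript arrays, per the labels' protocols. The deposited values are intensities on a linear scale. Per the submitters' processing notes, the authors used Affymetrix Expression Console, and the sources used here give no version, algorithm or normalization for it. Values below 16 were set to 16 (5.95% of values) and log2 was taken, which understates folds of dim genes. Probe sets were named through the platform annotation (21789 of 35512 had 1 symbol), symbols were updated through Entrez numbers (21698 matched), and a gene with several probe sets was read from the brightest by mean intensity. The 91 genes at the floor on every array were not tested. Of the members 5 had a second probe set.

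Groups followed the treatment label. The comparison used limma (version 3.58.1 under R 4.3.3) with lmFit and eBayes, 2-sided and without covariates, Benjamini-Hochberg adjusted over 19847 genes with a threshold of 0.05. SE and 95% intervals are those of the fit. The fit was tested on simulated arrays of 19847 genes for this comparison. It called 8 of 100 genes given a log2 change of 0.25 and 94 of 100 given 0.5. Only these genes were changed, all drawn from those with a mean signal above 340. In the data 2749 genes were called, which sets a looser p cutoff than in the simulation. The shares therefore do not measure recovery in this fit. A missed call of a small change does not show that a gene was unchanged. Alternatives were other scalings, floors, filters, thresholds and moderation, a replicate block, and leaving out each array. The named members are the 15 calls with the smallest p and the 4 nearest misses, with other members by step, and up to 4 genes of each other list and direction. Array values of Pcna, Rfc4, E2f1, Ccne1 and Dtl were added after their values were seen. So were values of E2f4, E2f5, Mki67 and the subunits of ORC and the polymerases outside the members. The members and lists were chosen with earlier results of these data known. Promoters are those of RefSeq, build GRCm38.p6. Probe sets that carry several symbols and genes of the lists with no named probe set, such as Cdkn1a, are not analysed here.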

Additional observations from a re-analysis of the deposited data

How the results depend on the processing

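No member was called higher, and all 26 calls kept their negative sign, in any alternative run. Members called lower numbered 40 with an intensity trend and robust prior, 4 at an adjusted p under 0.01 and 4 to 22 when an array was left out. In all other alternatives except the block they numbered 18 to 39. The median over members was -0.22 with arrays centred on their medians and -0.21 to -0.18 without 1 array. Over all genes, calls numbered 2749, and 4199 with the trend and robust prior, 4334 with array weights, 984 at an adjusted p under 0.01 and 1183 to 2810 when an array was left out. Titles number the replicates alike in both groups. Deviations of same-numbered arrays from their group means correlated at 0.24, 0.13 and -0.09. Vehicle arrays 1 and 2 correlated best with the inhibitor array of the same number, and vehicle array 3 with inhibitor array 2 (0.18). With 3 arrays per group these values cannot show whether the replicates were paired. With the number as a replicate block, 10 members and 1679 genes were called. The number of arrays limits what can be resolved.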
